A study of Mus musculus with 31 samples.

Results

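Chemokines and their receptors were followed in mouse mammary tissue that carried graded numbers of Stat5a and Stat5b alleles. The members were all gene symbols in both expression tables that consist of Ccl, Cxcl, Cx3cl or Xcl (ligands), or Ccr, Cxcr, Cx3cr or Xcr (receptors), followed by a number and, where present, a letter. This rule gave 58 of 22609 genes, 39 ligands and 19 receptors, without using any measured value. The adjacent genes Stat5a and Stat5b encode transcription factors that act downstream of prolactin in the mammary epithelium. Tissue without lymph nodes was taken at day 6 of pregnancy (18 samples, 3 per genotype) and at parturition, within 12 hours of delivery (13 samples, 3 for B and 2 for each other genotype).

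All mice were of the mixed strain 129SV::FVB/N::C57BL/6, and ages are not given in the sources used here. Null denotes Stat5abfl/fl;MMTV-Cre mice, in which line A of the MMTV-Cre transgene drives the loss of both genes, by the design text in mammary epithelial cells. B denotes Stat5abnull/Stat5a- mice with a single Stat5b allele, and A denotes Stat5abnull/Stat5b- mice with a single Stat5a allele. BB denotes Stat5a-/- mice with 2 Stat5b alleles, AB denotes Stat5ab+/null mice with 1 allele of each gene, and AABB denotes the wild type with 4 alleles, a name the design text also gives to Stat5abfl/fl mice. The alleles of B, A, BB and AB are germline alleles, carried by every cell of the gland, so the manner of loss and the number of alleles cannot be told apart between these genotypes and Null. Tissue came from 2 mice of a genotype by the protocol, against 3 samples listed for each at day 6, and the labels do not say whether A and B samples whose tags share a number and end in R or L came from the same animal.

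Chemokines are small secreted or membrane-anchored proteins that guide leukocytes along concentration gradients through receptors coupled to G proteins. Inflammatory members are made on demand and draw in monocytes, T cells, eosinophils or neutrophils, whereas homeostatic members place cells in lymphoid organs and at epithelial surfaces. In the mammary gland, macrophages and eosinophils take part in the branching of ducts during development, and Ccl28 made by the lactating epithelium is known for drawing antibody-secreting cells that carry Ccr10.

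Each table holds a single column per genotype, the authors' mean over samples of FPKM (fragments scaled by transcript length and by the number of mapped fragments). Every level below is therefore a mean with no SD, and differences could neither be checked against replicates nor tested. Levels are scaled FPKM, with the 6 columns of each stage brought to a common scale and the stages kept apart. Differences are log2 ratios of scaled FPKM + 1 to AABB, which understate differences of weakly expressed genes, and a gene is counted as higher or lower from 2-fold on this scale. The deposited FPKM sums ranged from 433958 to 528347 at day 6 and from 432576 to 1190590 at parturition, where AABB had the highest sum. Read depth is unknown. As a check of the labels, Stat5a stood at 33.5 in AABB, 15.9 in A, 13.6 in Null, 13.4 in AB, 12.5 in B and 3.66 in BB at day 6. Column B, labelled as lacking Stat5a, thus lay above BB and close to AB, so this level does not separate the label B at day 6, and the names B and A below stand for columns labelled so. At parturition Stat5a was 16.4 in A, 8.55 in B and 70.3 in AABB. Stat5b in column A, labelled as lacking it, was 10.6 against 11.6 in AB and 12.3 in B at day 6, and 10.3 against 11.2 and 12.5 at parturition, so its level does not separate the label A either.

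Of the 58 members, 35 (23 ligands and 12 receptors) reached 1 FPKM in at least 2 columns at day 6 and were compared, out of 13367 genes. At parturition 31 members were compared (24 ligands and 7 receptors), out of 13061 genes. Ccl19, Ccl21a, Ccl21b, Ccl21c, Ccl27b and Ccl28 were listed at 0 in all 12 columns. A total of 2781 genes were listed so, and none of 15 housekeeping genes was. An exact 0 in such a table can be a failed estimate, Ccl21a, Ccl21b and Ccl21c are near-identical copies, as are Ccl27a and Ccl27b, and no absence of their transcripts can be read from it. Ccr10, the receptor of Ccl28, lay between 0.416 in BB and 0.986 in B at day 6 and between 0.270 in BB and 1.02 in Null at parturition. The other members below the filter, 17 at day 6 and 21 at parturition, reached at most 1.36 and 2.08 FPKM. Exons of 6 members overlap a protein-coding neighbour in GENCODE M21, which leaves their levels uncertain: Ccl25, Ccl27a, Cxcl10, Cxcl16, Ccr9 and Cxcr5.

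In wild-type tissue the family was carried by a few transcripts. At day 6 the ligand levels of AABB summed to 236, with Ccl6, a myeloid chemokine, at 45.0, Cxcl14, a homeostatic epithelial chemokine, at 35.2 and Cxcl12, which retains cells through Cxcr4, at 25.7. Cxcr4 alone made up 55.2% of the receptor sum of 56.6. At parturition the ligand sum of AABB was 164, of which Cxcl14 held 38.5%, and the receptor sum was 30.0, of which Cxcr7, an atypical receptor that takes up Cxcl12, held 54.4%. The ligand sum was higher in each of the other columns, from 286 in Null to 648 in B at day 6 and from 252 in Null to 583 in A at parturition. Receptor sums at day 6 were 125 in B, 106 in A, 86.3 in BB, 84.1 in AB and 34.5 in Null.

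At day 6 of pregnancy the members stood higher mainly in the columns with a single allele. In B, 18 of 35 compared members were at least 2-fold higher than in AABB, beside 7.53% of all genes compared, and 0 were lower, beside 5.18%. In A, 14 were higher, beside 7%, and 0 were lower, beside 5.53%. BB had 6 higher members (5.11% of all genes) and 0 lower (3.6%), and AB had 7 higher (6.75%) and 0 lower (5%). Null had 2 higher members (2.21%), Cxcl13 and Cxcl17, and 1 lower (2.09%), Cxcr4. The median log2 ratio over the compared members was 1.23 in B, 0.70 in A, 0.68 in AB, 0.31 in BB and 0.08 in Null, where the medians over all genes lay between -0.02 in BB and 0.04 in B. Receptors had a median of 1.59 in B and 1.34 in A, and ligands 0.81 and 0.31. With a pseudocount of 0.1 in place of 1, 12 members were higher in BB, 12 in AB and 6 in Null, and 6 were lower in BB and 3 in Null. At that setting 1067, 1307 and 436 of all 13367 genes were higher in BB, AB and Null. Lower were 824 in BB and 487 in Null.

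**Figure D1:**
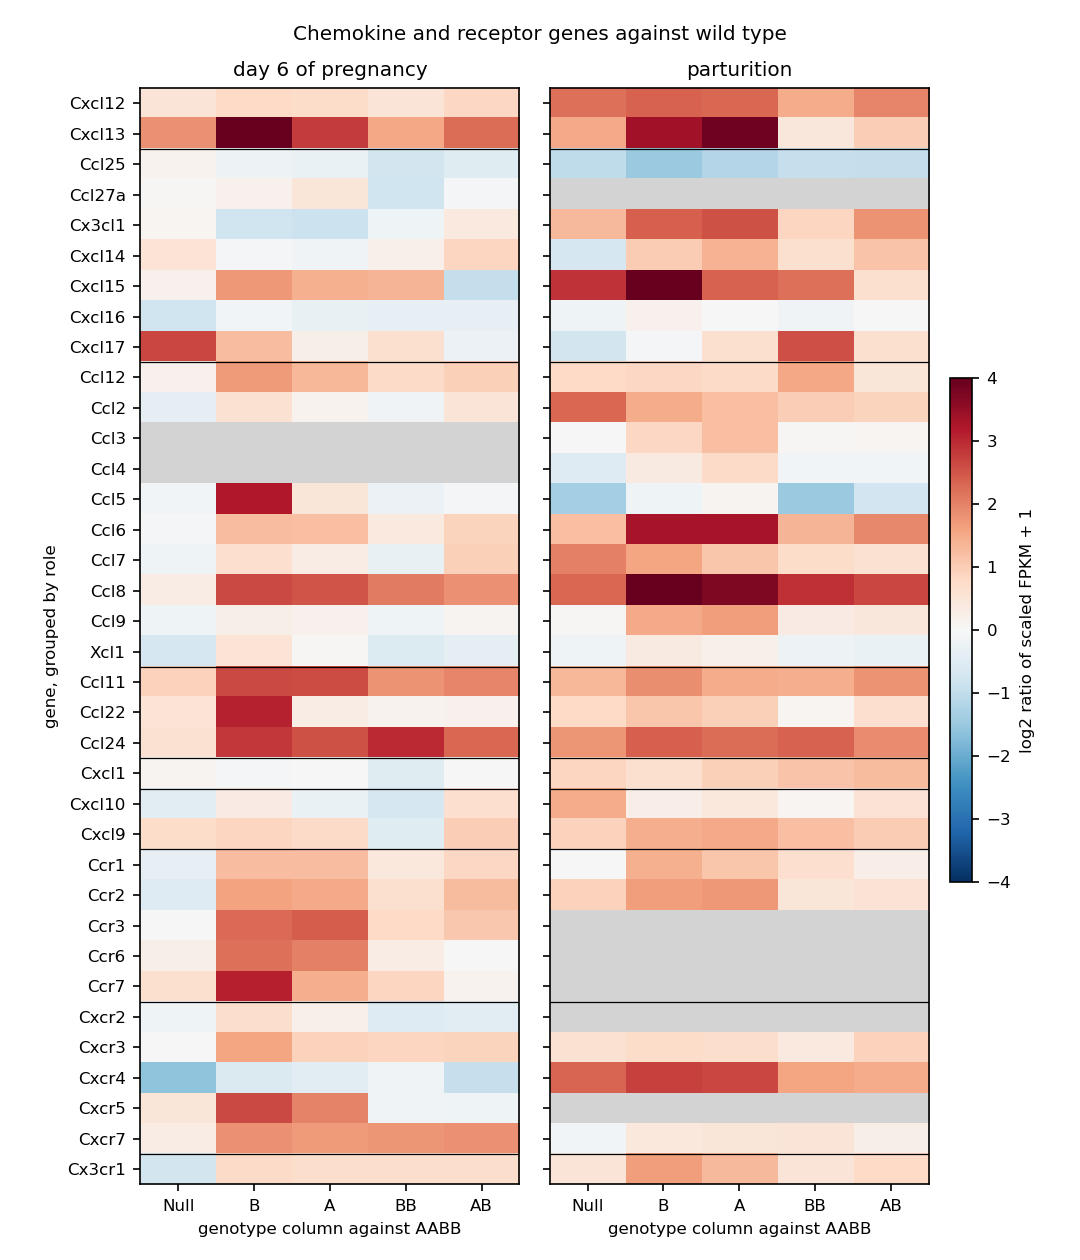
Log2 ratio of scaled FPKM + 1 in each genotype column (x axis) to AABB for members compared in at least 1 stage (y axis, grouped by role), at day 6 of pregnancy (left) and parturition (right). Colour runs from -4 to 4 and is saturated beyond, as for Cxcl13 in B at day 6 (4.90), and grey marks members below the filter at that stage. Columns B and A hold 18 and 14 of the cells at or past 2-fold (a log2 ratio of 1) at day 6, and Ccl25 is below AABB in all 5 genotypes at parturition.

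The eotaxins were among the members furthest above wild type. Ccl11 (eotaxin), which draws eosinophils through Ccr3, stood at day 6 at 24.5 in Null, 82.3 in B, 79.7 in A, 45.3 in BB, 50.9 in AB and 12.3 in AABB. Ccl24 (eotaxin 2), a ligand of the same receptor, stood at 3.12 in Null, 18.1 in B, 14.9 in A, 20.4 in BB, 12.3 in AB and 1.70 in AABB. All 4 genotypes with germline alleles were high for both ligands, and Null lay nearest to AABB. Their log2 ratios to AABB were 2.64 and 2.82 in B, 2.60 and 2.56 in A, 1.80 and 2.99 in BB, and 1.96 and 2.30 in AB, but 0.94 and 0.61 in Null. Ccr3 stood at 0.0528 in Null, 4.09 in B, 4.72 in A, 0.867 in BB, 1.26 in AB and 0.0647 in AABB. It was therefore highest in the columns with a single allele. BB and AB also lay above AABB, at log2 ratios of 0.81 and 1.09, from levels close to or below 1 FPKM. Among markers of eosinophils, Epx, which encodes their peroxidase, was at most 0.00882 in any column of day 6, and Prg2, which encodes their major basic protein, ranged from 0.671 to 1.15. Other genes of that list moved with Ccr3, which belongs to it: Siglec5 was 0.139 in AABB, 1.96 in B and 2.28 in A, and the list summed to 7.70 in B and 8.88 in A against 1.45 in AABB. The part of eosinophils in these levels was not tested.

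At parturition the eotaxins were at least 2-fold above AABB in all 5 genotypes. Ccl11 stood at 29.6 in Null, 42.7 in B, 32.7 in A, 32.3 in BB, 40.5 in AB and 11.1 in AABB. Ccl24 stood at 5.19 in Null, 8.58 in B, 7.53 in A, 8.41 in BB, 5.80 in AB and 0.829 in AABB. Here Null lay with the other genotypes, and the gap was between AABB and the rest. The levels of Ccr3 were too low at this stage to be compared.

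Ccl22, a ligand of Ccr4 that mature dendritic cells make, was high in a single column of day 6. It stood at 11.5 in B, against 1.16 in Null, 0.803 in A, 0.614 in BB, 0.666 in AB and 0.466 in AABB. Of the other type 2 ligands, Ccl17, which shares Ccr4, was below the filter, with its highest level of 1.27 in B. In genome order Ccl22, Cx3cl1 and Ccl17 are neighbours, and Cx3cl1, described below, was lower in B than in AABB.

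Inflammatory ligands of monocytes and macrophages were led by Ccl8 and Ccl6. Ccl8, a CC chemokine of tissue macrophages, stood at day 6 at 24.3 in Null, 127 in B, 116 in A, 86.2 in BB, 72.8 in AB and 19.6 in AABB. At parturition it stood at 15.9 in Null, 63.3 in B, 44.9 in A, 24.9 in BB, 21.1 in AB and 2.43 in AABB. Within each stage the order of the 4 genotypes with germline alleles was the same, B, A, BB and AB, and AABB was lowest. The log2 ratio to AABB at parturition ran from 2.30 in Null to 4.23 in B. Without the added pseudocount this was 6.53-fold in Null, 26.1-fold in B, 18.5-fold in A, 10.3-fold in BB and 8.68-fold in AB.

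Ccl6, a rodent chemokine of myeloid cells that acts through Ccr1, stood at day 6 at 42.3 in Null, 107 in B, 105 in A, 59.6 in BB, 84.3 in AB and 45.0 in AABB. Its parturition levels were 25.3 in Null, 111 in B, 110 in A, 27.9 in BB, 41.6 in AB and 10.4 in AABB. Columns B and A stood apart from the rest at parturition, at log2 ratios of 3.30 and 3.29, whereas Null, BB and AB lay between 1.21 and 1.91. Its neighbour Ccl9, which shares Ccr1, differed less: at parturition it stood at 10.00 in Null, 29.2 in B, 33.0 in A, 12.1 in BB, 13.5 in AB and 9.55 in AABB. At day 6 Ccl9 lay between 18.6 in BB and 25.4 in B, with 21.2 in AABB.

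Ccl2, Ccl7 and Ccl12 attract monocytes through Ccr2. At day 6 Ccl12 stood at 1.74 in Null, 6.86 in B, 5.18 in A, 3.13 in BB, 3.76 in AB and 1.44 in AABB. With the pseudocount Ccl12 was at least 2-fold higher in B and A. Without the pseudocount it was also 2.17-fold higher in BB and 2.61-fold in AB. Ccl2, from 3.05 in Null to 7.21 in B against 4.37 in AABB, differed by less than 2-fold in every genotype. Ccl7 ran from 2.05 in BB to 6.11 in AB against 2.70 in AABB. All its ratios were below 2-fold with the pseudocount, and AB was 2.26-fold higher without it. At parturition Ccl2 stood at 7.58 in Null, 3.94 in B, 3.06 in A, 2.45 in BB, 2.22 in AB and 0.754 in AABB. Ccl7 stood at 5.59 in Null, 3.92 in B, 2.56 in A, 1.74 in BB, 1.54 in AB and 0.646 in AABB. Both were thus highest in Null at parturition and had the same order of columns, unlike Ccl8 and Ccl6, for which Null was the lowest of the 5 genotypes. Ccl12 was highest in BB at that stage, at 5.25, against 1.15 in AABB. Ccl2, Ccl7, Ccl11, Ccl12, Ccl8 and Ccl1 follow each other in the genome. At day 6 the 4 genotypes with germline alleles were at least 2-fold higher for Ccl11 and Ccl8. With the pseudocount none was for Ccl2 and Ccl7.

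Ccl5, which activated T cells and NK cells make, stood apart in B at day 6. It stood at 6.06 in Null, 68.6 in B, 9.59 in A, 5.44 in BB, 6.11 in AB and 6.57 in AABB. At parturition the high columns were A (9.34), AABB (8.51) and B (7.39), and the low columns were AB (4.63), Null (2.69) and BB (2.38). Ccl5 was therefore at least 2-fold below AABB in Null (log2 ratio -1.37) and BB (-1.49) at parturition, but with FPKM left unscaled the ratio in Null was -0.96. Ccl25 was the other member below AABB by 2-fold at that stage, in Null, B and A, and its calls in Null and A were lost without scaling and after a lowess correction for length and GC. Ccl3 and Ccl4, inflammatory ligands of macrophages and T cells, were compared only at parturition, where Ccl3 was highest in A at 2.08, against 0.351 in AABB. Xcl1, which draws cross-presenting dendritic cells through Xcr1, differed by less than 2-fold from AABB in every column of both stages with the pseudocount. Its levels were low, at day 6 for example 0.407 in Null against 1.26 in AABB.

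RefSeq promoters (GRCm38.p6, whereas the deposited values rest on mm9) were at hand for 42 of the 58 members, in 49 entries. The 250 bases before the annotated start were searched on both strands for TTCNNNGAA, the letters of a STAT site, and the letters of an NF-kB site, GGG, any 2 bases and TTTCC. The STAT letters were in 6.12% of the members' entries (Ccl17, Cxcl14 and Ccr6) and in 7.02% of all 32851 promoter entries. The NF-kB letters were in 12.2% of the members' entries (Ccl20, Ccl9, Cxcl1, Cxcl2, Cxcl3 and Ccr3) and in 1.41% of all. Such a match is a description of letters and not a site of binding. The windows of 6 members are printed, 5′ to 3′ on the gene's strand and ending at the base before the start, with matched letters in capitals. Ccl8, Ccl6, Cxcl12 and Cxcr4 are shown because they were higher in all 5 genotypes at parturition. Ccl11 and Ccl24 were so as well but had no promoter entry. Ccl9 is shown because it is the neighbour of Ccl6 that differed less, and Cxcl14 because it is the abundant ligand with STAT letters. Neither set of letters is in the windows of Ccl8, Ccl6, Cxcl12 and Cxcr4. Those of Ccl9 begin 35 bases before the start (NF-kB), and those of Cxcl14 begin 191 bases before it (STAT).
Ccl8 (chr11:82114935-82115184, plus strand): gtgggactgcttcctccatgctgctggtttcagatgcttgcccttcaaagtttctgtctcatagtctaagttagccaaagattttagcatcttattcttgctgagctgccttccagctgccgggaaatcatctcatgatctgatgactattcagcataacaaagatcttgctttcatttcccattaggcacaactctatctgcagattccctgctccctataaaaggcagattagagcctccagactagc
Ccl6 (chr11:83593088-83593337, minus strand): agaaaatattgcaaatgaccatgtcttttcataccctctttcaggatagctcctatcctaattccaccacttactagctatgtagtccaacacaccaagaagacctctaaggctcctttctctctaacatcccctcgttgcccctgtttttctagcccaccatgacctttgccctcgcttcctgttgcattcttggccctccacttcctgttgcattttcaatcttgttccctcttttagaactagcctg
Ccl9 (chr11:83578637-83578886, minus strand): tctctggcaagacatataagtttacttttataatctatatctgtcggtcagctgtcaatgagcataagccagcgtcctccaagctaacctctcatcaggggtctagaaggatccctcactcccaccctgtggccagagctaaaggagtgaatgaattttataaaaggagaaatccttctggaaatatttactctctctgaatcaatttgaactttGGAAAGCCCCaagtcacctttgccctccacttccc
Cxcl12 (chr6:117168285-117168534, plus strand): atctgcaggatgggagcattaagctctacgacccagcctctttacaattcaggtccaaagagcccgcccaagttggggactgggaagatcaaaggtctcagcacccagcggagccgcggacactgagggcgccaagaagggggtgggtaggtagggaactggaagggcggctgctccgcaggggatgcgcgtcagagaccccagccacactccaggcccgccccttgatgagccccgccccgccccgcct
Cxcr4 (chr1:128592300-128592549, minus strand): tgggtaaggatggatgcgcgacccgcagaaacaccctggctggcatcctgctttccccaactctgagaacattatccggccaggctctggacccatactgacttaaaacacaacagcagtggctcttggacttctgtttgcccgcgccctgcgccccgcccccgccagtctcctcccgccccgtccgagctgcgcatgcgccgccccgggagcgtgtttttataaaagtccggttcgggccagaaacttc
Cxcl14 (chr13:56296552-56296801, minus strand): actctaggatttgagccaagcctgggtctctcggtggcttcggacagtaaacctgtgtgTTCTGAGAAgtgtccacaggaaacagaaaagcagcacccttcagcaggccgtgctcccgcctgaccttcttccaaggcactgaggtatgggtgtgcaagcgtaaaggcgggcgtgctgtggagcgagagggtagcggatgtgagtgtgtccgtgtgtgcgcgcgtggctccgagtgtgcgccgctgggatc

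Among interferon-induced ligands, Cxcl9, which interferon gamma induces and which binds Cxcr3, stood at parturition at 11.1 in Null, 16.7 in B, 17.4 in A, 13.8 in BB, 11.9 in AB and 5.45 in AABB. It was at least 2-fold above AABB in B, A, BB and AB. In Null the log2 ratio was 0.91, and without the pseudocount the level was 2.04-fold higher. At day 6 it was lowest in BB, at 4.10, against 6.17 in AABB and 13.0 in AB. Cxcl10, another interferon-induced ligand of Cxcr3, was highest in Null at parturition, at 4.20 against 0.861 in AABB. The exons of Cxcl10 overlap the gene Art3, whose reads may be counted with it. Of the neutrophil ligands, Cxcl1 was compared and stood between 1.09 in B and 2.19 in AB at parturition, against 0.335 in AABB. With the pseudocount it was 2-fold or more higher in BB and AB. Cxcl2 was below the filter, with 2.08 in A and 0.870 in B and a listed 0 in AABB.

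Of the homeostatic ligands, Cxcl13, which guides B cells into follicles through Cxcr5, stood at day 6 at 3.78 in Null, 39.2 in B, 8.30 in A, 2.95 in BB, 5.35 in AB and 0.350 in AABB. It was the member at least 2-fold higher in all 5 genotypes at that stage, as were 0.239% of all genes compared. At parturition it stood at 1.96 in Null, 9.74 in B, 14.5 in A, 0.426 in BB, 1.06 in AB and 0.0428 in AABB. Column B was highest at day 6 and column A at parturition.

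Cxcl12 varied little at day 6, from 37.2 in Null to 45.9 in AB against 25.7 in AABB, all within 2-fold. At parturition it stood at 34.2 in Null, 38.1 in B, 36.1 in A, 20.3 in BB, 28.2 in AB and 6.58 in AABB. It was then at least 2-fold higher in all 5 genotypes, with log2 ratios from 1.49 in BB to 2.37 in B, and without the pseudocount 5.19-fold higher in Null.

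Epithelial and mucosal ligands showed several patterns. Cx3cl1 (fractalkine), a membrane-anchored ligand of Cx3cr1, stood at day 6 at 22.5 in Null, 11.7 in B, 11.3 in A, 18.9 in BB, 28.0 in AB and 21.3 in AABB. The parturition levels were 17.8 in Null, 39.0 in B, 43.2 in A, 12.6 in BB, 25.6 in AB and 6.58 in AABB. B and A were the lowest columns at day 6, at log2 ratios of -0.81 and -0.86, and the highest at parturition, at 2.40 and 2.54. Cxcl14 stood at parturition at 39.0 in Null, 130 in B, 168 in A, 98.6 in BB, 141 in AB and 63.0 in AABB. Null lay below AABB (log2 ratio -0.68) and the others above, at least 2-fold in B, A and AB, although B was at 0.94 after the lowess correction for length and GC. At day 6 Cxcl14 was highest in AB, at 64.6, and lay between 31.9 and 51.9 elsewhere.

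Cxcl15, first described in lung epithelium, stood at parturition at 12.5 in Null, 31.9 in B, 8.25 in A, 7.30 in BB, 1.81 in AB and 0.815 in AABB. Null, B, A and BB were at least 2-fold above AABB, and with the pseudocount AB was within 2-fold of it. At day 6 it was 14.4 in B, 11.6 in A and 11.1 in BB, against 4.26 in Null, 3.67 in AABB and 1.39 in AB. AB, which keeps an allele of each gene, was thus lowest or next to lowest at both stages.

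Cxcl17, a mucosal chemokine, was high in a different column at each stage. At day 6 it stood at 11.2 in Null, 3.45 in B, 1.24 in A, 1.99 in BB, 0.617 in AB and 0.901 in AABB. The levels at parturition were 7.88 in Null, 13.2 in B, 21.8 in A, 86.6 in BB, 21.9 in AB and 13.6 in AABB. The BB column was 6.36-fold above AABB, while Null was the lowest. Ccl25, known from thymus and gut, was below AABB in all 5 genotypes at parturition, with 1.69 in Null, 0.981 in B, 1.41 in A, 1.92 in BB, 1.84 in AB and 4.49 in AABB. The exons of Ccl25 overlap those of Elavl1, so that its level is uncertain. Cxcl16, a membrane-anchored ligand of Cxcr6 whose exons overlap Zmynd15, differed by less than 2-fold from AABB everywhere, with 9.70 in Null, 16.4 in B, 14.2 in A, 13.9 in BB, 13.9 in AB and 17.7 in AABB at day 6 and 13.0 in AABB at parturition.

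**Figure D2:**
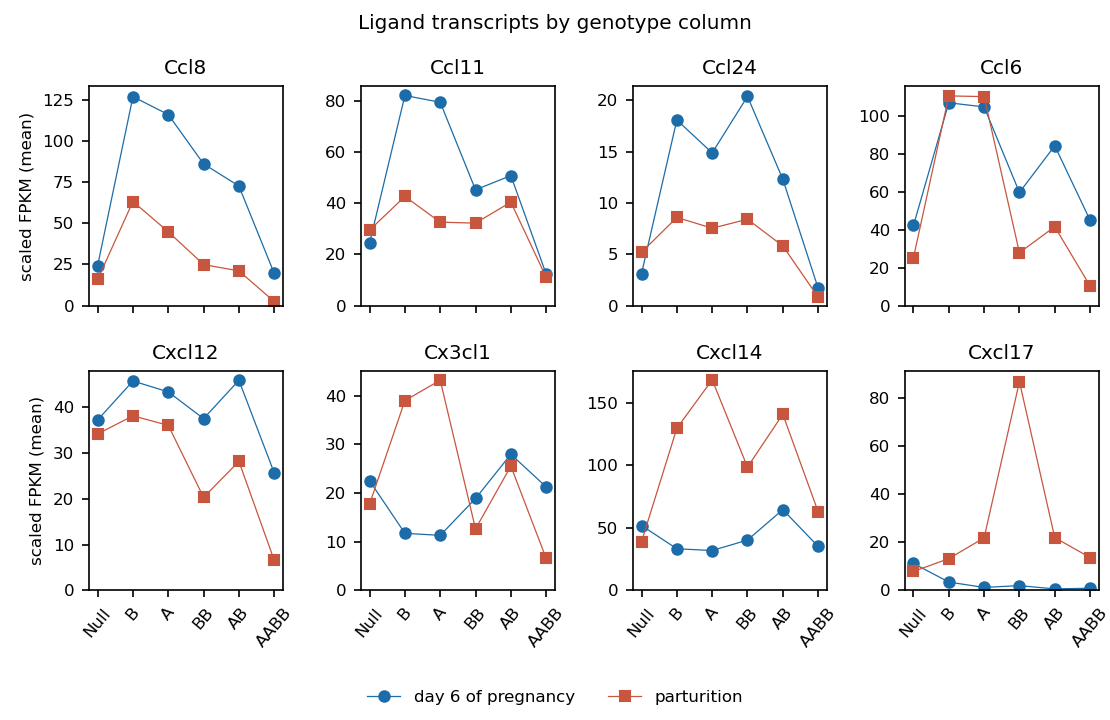
Scaled FPKM (y axis, linear, from 0) of 8 ligands in the 6 genotype columns (x axis) at day 6 of pregnancy (circles) and parturition (squares). Each point is the authors' mean for that genotype, lines join the columns of a stage for the eye, and the stages were scaled apart, so a circle and a square are not compared. Ccl8 is highest in B at both stages (127 and 63.3), and Cxcl17 reaches 86.6 in BB at parturition.

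Among the receptors, Cxcr4 and Cxcr7 bind Cxcl12 and moved differently. Cxcr4, the signalling receptor, stood at day 6 at 9.63 in Null, 20.7 in B, 22.6 in A, 28.3 in BB, 15.8 in AB and 31.2 in AABB. Its levels at parturition were 17.5 in Null, 23.5 in B, 22.1 in A, 9.92 in BB, 9.25 in AB and 2.65 in AABB. AABB was thus the highest column at day 6, where Null was at a log2 ratio of -1.60, and the lowest at parturition, where all 5 genotypes were at least 2-fold higher. Cxcr7 stood at day 6 at 10.2 in Null, 31.1 in B, 28.6 in A, 29.8 in BB, 31.7 in AB and 8.12 in AABB. Its columns fell into a high set with germline alleles and a low set of Null and AABB. At parturition Cxcr7 lay between 15.0 in Null and 23.9 in BB, within 2-fold of 16.3 in AABB.

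The monocyte receptor Ccr2 stood at day 6 at 3.78 in Null, 19.8 in B, 18.4 in A, 9.57 in BB, 15.5 in AB and 5.81 in AABB. At parturition it stood at 6.50 in Null, 11.8 in B, 12.2 in A, 4.63 in BB, 4.96 in AB and 2.98 in AABB. B and A were the highest columns at both stages. Ccr1, the receptor of Ccl6 and Ccl9, stood at day 6 at 1.11 in Null, 5.24 in B, 5.14 in A, 2.57 in BB, 3.70 in AB and 1.63 in AABB. It was 5.90 in B and 4.60 in A at parturition, against 1.59 in AABB. After a lowess correction for length and GC of the transcripts, the day 6 log2 ratios of Ccr1 in B (0.97) and A (0.90), and of Ccr2 in A (0.89) and AB (0.86), were below 2-fold. Cx3cr1, the fractalkine receptor of monocytes and macrophages, stood at parturition at 3.03 in Null, 8.06 in B, 5.96 in A, 3.06 in BB, 3.90 in AB and 1.82 in AABB. At day 6 it stood between 4.53 and 4.75 in the 4 genotypes with germline alleles against 1.04 in Null and 2.40 in AABB.

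Several receptors of lymphocytes stood high in B and A at day 6. Cxcr5, which B cells use to follow Cxcl13, stood at 1.06 in Null, 8.09 in B, 4.81 in A, 0.324 in BB, 0.299 in AB and 0.455 in AABB. Ccr7, which guides naive lymphocytes and dendritic cells to Ccl19 and Ccl21, stood at 1.37 in Null, 11.9 in B, 3.15 in A, 1.73 in BB, 0.660 in AB and 0.505 in AABB. Ccr6, a receptor of B cells and some T cells for Ccl20, was 3.98 in B and 3.39 in A and at most 0.331 elsewhere. Cxcr3 of activated T cells was 3.34 in B, 1.75 in A, 1.68 in BB and 1.74 in AB. Null stood at 0.474 and AABB at 0.465. With the pseudocount the log2 ratios in A, BB and AB were 0.91, 0.87 and 0.90, short of 2-fold. That scale understates differences at levels this low. Levels of Ccr6, Ccr7 and Cxcr5 were too low at parturition to be compared, and Ccr7 was at most 0.633 there. The exons of Cxcr5 overlap Bcl9l.

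**Figure D3:**
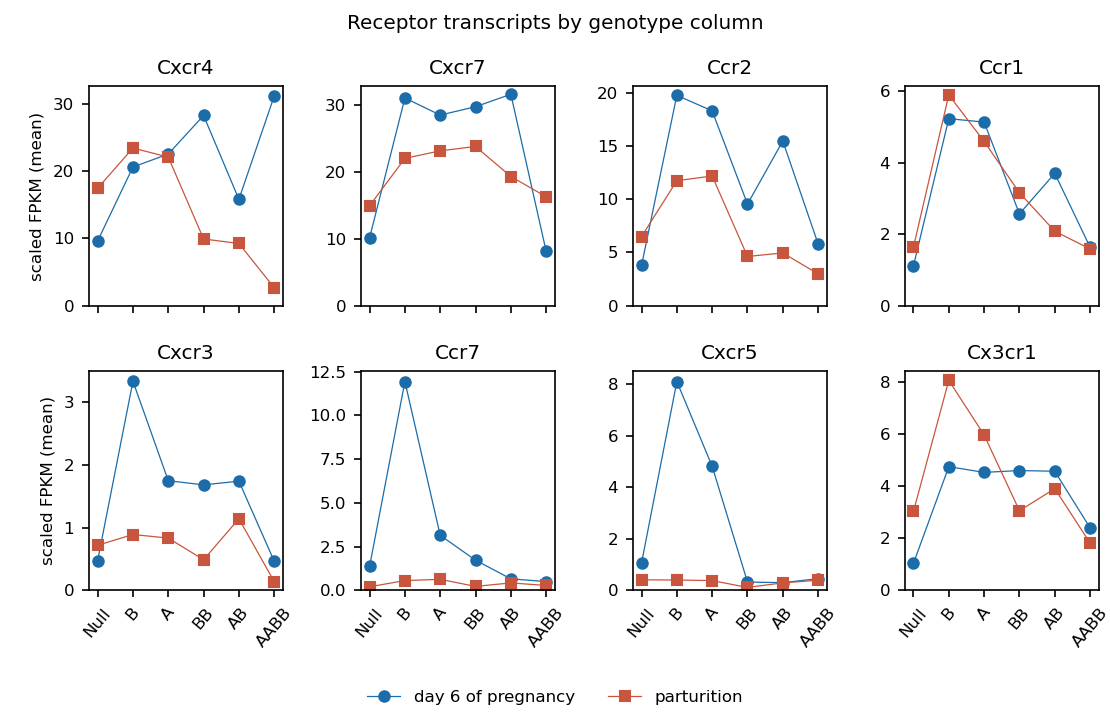
Scaled FPKM (y axis, linear, from 0) of 8 receptors in the 6 genotype columns (x axis) at day 6 of pregnancy (circles) and parturition (squares), each point the authors' mean. Lines join the columns of a stage for the eye, and the stages were scaled apart. Cxcr4 is highest in AABB at day 6 (31.2) and lowest there at parturition (2.65), and Ccr7 reaches 11.9 in B at day 6.

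At parturition the members stood above wild type in most comparisons, as did a larger share of all genes. Null had 12 of 31 members higher, beside 19% of all genes, and 2 lower (Ccl25 and Ccl5), beside 10.7%. B had 19 higher (18.2%) and 1 lower, Ccl25 (10.1%), and A had 19 higher (17.3%) and 1 lower, Ccl25 (10%). BB had 11 higher (8.05%) and 1 lower, Ccl5 (5.37%), and AB had 10 higher (10.2%) and 0 lower (5.44%). The medians over members were 1.45 in B, 1.21 in A, 0.87 in Null, 0.69 in BB and 0.65 in AB, and the medians over all genes were 0.11, 0.10, 0.10, 0.05 and 0.04. Ccl6, Ccl8, Ccl11, Ccl24, Cxcl12 and Cxcr4 were higher in all 5 genotypes, as were 640 genes (4.90% of all compared). AABB was the lowest column for 23 of 31 members (37.3% of all genes) at parturition and for 12 of 35 (24.8%) at day 6. The highest column was A or B for 22 members at parturition (22.9% of all genes) and for 21 at day 6 (31.1%). With a pseudocount of 0.1, 19 members were higher in Null and 17 in AB, beside 3198 and 2146 of all 13061 genes. The 5 comparisons of a stage share the AABB column, so their counts are not independent of each other.

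A and B carry the same number of alleles, a single Stat5a or a single Stat5b, and most members had like levels in them. At day 6, 0 members were at least 2-fold higher in A than in B (0.135% of all genes) and 4 were lower (0.247%), namely Ccl22 (log2 ratio of A to B -2.79), Ccl5 (-2.72), Cxcl13 (-2.11) and Ccr7 (-1.64). All 4 turned on a high level in B given above. At parturition 0 were higher (0.36%) and 1 was lower (0.329%), Cxcl15 (-1.83). The medians of the ratio of A to B were -0.18 at day 6 and -0.04 at parturition. With a single mean per column, it cannot be told whether 1 sample or all 3 samples of B carried the levels of day 6.

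**Figure D4:**
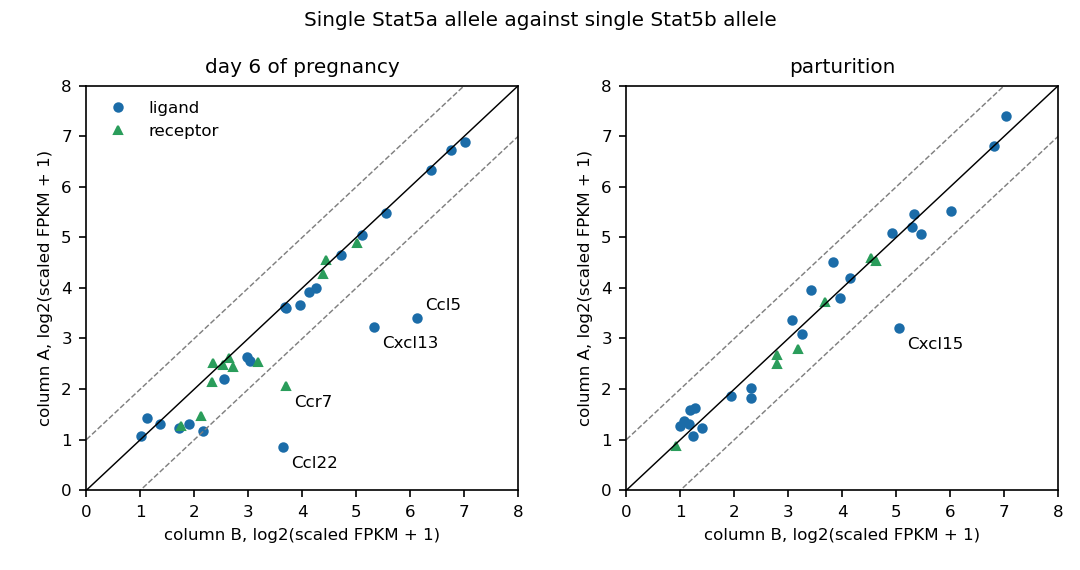
Log2 of scaled FPKM + 1 in column A (y axis) against column B (x axis) for the members compared at day 6 of pregnancy (left) and parturition (right), ligands as circles and receptors as triangles. The solid line marks equal levels and the dashed lines 2-fold differences. Ccl22, Ccl5, Cxcl13 and Ccr7 lie below the lower dashed line at day 6, and Cxcl15 lies below it at parturition.

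Markers of other cell types moved with several of these members, and in whole tissue fewer cells of a type and less RNA per cell cannot be told apart. Of 8 B cell markers, 8 were higher in B and 8 in A at day 6, beside Cxcr5, Ccr6, Ccr7 and Cxcl13. The markers summed to 203 and 171 against 5.20 in AABB. Of all genes compared at day 6, 7.53% were higher in B, 7% in A, 5.11% in BB, 6.75% in AB and 2.21% in Null. At parturition no B cell marker passed the filter, and the sums lay between 1.20 and 3.88 while Cxcl13 was still 9.74 in B and 14.5 in A. T cell markers summed to 31.1 in B and 14.2 in A against 11.5 in AABB at day 6. Their sums were 18.2 in Null, 15.6 in BB and 8.25 in AB. Of 7 T cell markers compared, 5 were higher in B, 1 in A and 0 in Null, BB and AB. Lower were 1 in A and 2 in AB, beside 5.53% and 5% of all genes. Ccl5 in Null and BB was within 2-fold of AABB. Markers of NK and cytotoxic cells summed to 23.7 in B and 14.0 in A against 6.60 in AABB. Their sums were 5.57 in AB, 5.14 in BB and 2.78 in Null. At parturition markers of NK and cytotoxic cells summed to 18.4 in B, 17.0 in A and 13.2 in AABB. They summed to 5.59 in BB, 3.63 in AB and 2.69 in Null, the same split of columns as for Ccl5. Of 8 T cell markers, 2 passed the filter at parturition, too few to set their sums against this split. All 8 summed to 8.55 in Null, 7.11 in B, 5.91 in A, 5.72 in AB, 5.59 in AABB and 3.43 in BB. The list of lymph node stroma and high endothelium, which holds Cxcl13, summed to 113 in B, 98.1 in AB, 67.1 in Null, 66.1 in A and 57.5 in BB against 33.6 in AABB at day 6. Its most abundant gene, Enpp2, stood at 70.6 in B and 90.7 in AB against 31.6. Of 3 genes of the list compared, Cxcl13 was higher in all 5 genotypes and Enpp2 in B and AB. Madcam1, also listed, was counted as higher in none. Chst4, of high endothelium, was below 1 FPKM in B (0.589) and in AABB (0.0618), and Ccl21a was listed at 0. Dendritic cell markers include Ccr7 and Xcr1. At day 6 they summed to 291 in B, 257 in A and 398 in AB against 208 in AABB. Their sums were 224 in BB and 158 in Null. Of 7 compared, 3 were higher in B, 2 in A and 1 each in BB and AB. Ccr7 was among those of B and A, and Itgax was lower in B, A, BB and AB. The part of these cells in the results was not tested.

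Myeloid and stromal markers also differed. Mast cell markers summed to 468 in B, 457 in A, 375 in BB and 283 in AB at day 6, against 75.1 in Null and 69.1 in AABB, an order that Ccl8 shared. Kit, which other cells of the gland also express, made up 57.1 of the AABB sum, and 4 of the 6 markers were at least 2-fold higher in Null as well, among them Cpa3 (3.97 against 0.970). At parturition 5 of 5 were higher in all 5 genotypes. Of 7 macrophage markers compared, 4 were higher in B and 3 each in A, BB and AB at day 6, with 0 in Null. The shares of all genes higher at day 6 were 7.53% in B, 7% in A, 5.11% in BB, 6.75% in AB and 2.21% in Null. Macrophage markers then summed to 996 in B, 933 in BB, 812 in AB, 809 in A and 596 in Null. AABB stood at 828. At parturition 7 were higher in B, A, BB and AB and 6 in Null. Their sums ran from 297 in Null to 664 in B against 123 in AABB. Of all genes, from 8.05% in BB to 19% in Null were higher at parturition. All 6 fibroblast markers were higher in all 5 genotypes at parturition, with sums from 1449 to 2209 against 374. At day 6 fibroblast markers summed to 4275 in B, 4028 in A, 8510 in BB and 7780 in AB. Null stood at 1782 and AABB at 2035. Of the 6, 4 were higher in B, 4 in A, 6 in BB, 6 in AB and 1 in Null. Col1a1 was lower in A. Adipocyte markers summed to 16156 in Null and 2766 in AABB at parturition. Luminal epithelial markers, which check the labelled tissue, summed to values from 765 in AB to 1653 in AABB at day 6 and from 1193 in Null to 3056 in BB at parturition. Skeletal muscle markers summed to 4000 in AB and 261 in Null at day 6, against 57.4 in AABB. At parturition they summed to 1895 in Null, 1236 in B and 1254 in A, with all 4 higher, against 106 in AABB, and to 2.43 in BB and 5.95 in AB, with all 4 lower. Neutrophil markers summed to 24.6 in B, 27.1 in A, 12.4 in BB and 11.0 in AB against 3.73 in AABB at day 6, and at parturition to 27.6 in A, with 3 of 4 higher, against 9.23. The part of these cell types in the chemokine levels was not tested.

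Genes that act on chemokines without bearing their names differed alongside them. Compared were 8 genes for otherwise named ligands, atypical receptors and the chemokine-trimming protease Dpp4. At day 6, 4 were higher in each of B, A, BB and AB and 0 in Null. The shares of all genes higher there were 7.53%, 7%, 5.11%, 6.75% and 2.21%, in that order. Dpp4 stood at 1.30 in Null, 16.3 in B, 15.3 in A, 15.7 in BB, 14.5 in AB and 0.800 in AABB, the same split as Cxcr7. Ccbp2, which scavenges inflammatory CC chemokines, stood at 0.727 in Null, 5.75 in B, 5.58 in A, 3.85 in BB, 3.36 in AB and 0.367 in AABB. At parturition 6 of the 8 were higher in Null, B, A and BB and 5 in AB. The shares of all genes were 19%, 18.2%, 17.3%, 8.05% and 10.2%, in that order. Rarres2 (chemerin) was among the higher genes, at 111 in Null and 13.0 in AABB. Of 19 genes of chemokine receptor signalling, 10 were higher in B and 11 in A at parturition, 6 in Null, 2 in AB and 0 in BB, beside 18.2%, 17.3%, 19%, 10.2% and 8.05% of all genes. Adrbk1, a kinase that desensitises such receptors, was lower in Null. Rgs16, a brake on G protein signalling, was lower in all 5 genotypes at both stages. It stood at 12.9 in AABB and at most 4.00 elsewhere at day 6. At parturition it stood at 22.5 in AABB and at most 8.35 elsewhere. At day 6, 11 cytokines and factors that induce chemokines were compared. Lower were 1 in Null, 2 in B, 4 in A, 2 in BB and 2 in AB. The shares of all genes lower were 2.09%, 5.18%, 5.53%, 3.6% and 5%, in that order. Nfkbia, the inhibitor of NF-kB, was lower in all 5 genotypes, from 60.5 in AB to 70.2 in Null against 149 in AABB. Rela, Relb and Nfkb2 were also lower in A, Rela in B, and Tnf in BB and AB. Il1b was higher in B, and Ltb in B and A. At parturition Nfkbia was 2-fold lower in BB alone.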

How the data were processed

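Poly(A) RNA of mammary tissue was sequenced on an Illumina HiSeq, per the labels' protocols. The submitters' processing notes name CASAVA, TopHat and the build mm9 without versions, and the program that computed FPKM and its annotation are not given in the sources used here. The deposited tables hold FPKM per gene symbol, averaged by the authors into 1 column per genotype and stage. Tests over samples were planned but could not be run on means. A factor for each of the 6 columns of a stage was the median, over genes with 1 FPKM or more in every column, of the ratio to the gene's geometric mean (11733 genes at day 6 and 10864 at parturition), and factors ran from 0.919 to 1.07 and from 0.799 to 1.13. Genes that reached 1 FPKM in 2 or more columns were compared as log2 ratios with a pseudocount of 1 and counted from 2-fold. The members and gene lists were chosen with earlier results of these data known. Members described with every column in at least 1 stage, and the unreported member below, reached 5 FPKM and differed 2-fold from AABB in 2 or more genotypes of a stage, were among the 5 highest in AABB, or differed 2-fold between A and B (26 genes). Others are named to account for a role group or a receptor. Alternatives were a pseudocount of 0.1, no filter, a floor of 5 FPKM, no scaling and, added after earlier results were known, removal of the trend with transcript length and GC content by lowess (GENCODE M21). The levels of 1 member, which is in the counts, are not reported here. The calculation was tested on simulated data. Python 3.11.15, numpy 2.4.6, pandas 2.3.3, statsmodels 0.14.6 and matplotlib 3.10.9 were used. The labels do not say whether samples came from separate animals.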

Additional observations from a re-analysis of the deposited data

How the results depend on the processing

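Counts of members at least 2-fold from AABB kept within 1.5 times of the reported value without the filter in all 24 cases (12 comparisons, each direction), in 21 without scaling, in 21 with the length and GC trend removed, in 19 with a floor of 5 FPKM and in 14 with a pseudocount of 0.1, and no count or ratio reversed. With a pseudocount of 0.1, higher members at day 6 numbered 6 in Null, 12 in BB and 12 in AB, and lower members 3 in Null, 6 in BB and 1 in AB. Of all 13367 genes, 436, 1067 and 1307 were then higher, and 487, 824 and 1021 lower, in that order. At parturition that setting gave 19 higher in Null and 17 in AB, and 2 lower in BB and 1 in AB. Of all 13061 genes, 3198 were higher in Null and 2146 in AB, and 979 were lower in BB and 990 in AB. A floor of 5 FPKM left 1 higher in Null at day 6, 2 lower in A against B at day 6, and at parturition 1 lower in Null, 0 in B and 0 in A. Of 10061 genes at day 6, 239 were higher in Null and 14 lower in A against B. Of 9689 genes at parturition, 1155 were lower in Null, 1088 in B and 1039 in A. Without scaling, 2 were lower in AB at day 6, beside 997 of 13367 genes. At parturition 0 were lower in Null and in A, beside 783 and 637 of 13061 genes. Removing the trend gave 10 higher in BB at day 6, beside 620 of 13249 genes. It gave 0 lower in Null and in A at parturition, beside 1288 and 1195 of 12948 genes. Under the trend setting Ccr1 in B (log2 ratio 0.97) and A (0.90) and Ccr2 in A (0.89) and AB (0.86) at day 6, and Cxcl14 in B (0.94) at parturition, were no longer 2-fold, and Ccl5 in Null at parturition was at -0.98. The cause was not tested. Without scaling the median log2 ratio of all genes moved to -0.12 in BB and -0.16 in AB at day 6 and to 0.50, 0.53, 0.50, 0.30 and 0.23 in Null, B, A, BB and AB at parturition. The share of higher among all genes called then went from 63.9% to 82.7% in Null, 64.3% to 85.6% in B, 63.4% to 84.8% in A, 60.0% to 80.1% in BB and 65.1% to 80.2% in AB at parturition, and from 51.4% to 40% in Null, 58.7% to 46.2% in BB and 57.4% to 40.4% in AB at day 6. With the trend removed it went from 55.9% to 66.2% in A at day 6. Median transcript length was 1356 bases for ligands, 2833 for receptors and 3302 for compared genes. No paired analysis was possible because the tables hold means, and fits without each replicate were not run for the same reason.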
